A study of Mus musculus with 9 samples.

Results

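Neurexins, neuroligins and leucine-rich repeat transmembrane proteins (LRRTMs) are cell-surface proteins that join the sending and the receiving side of a synapse. The genes described are Nrxn2, Nrxn3, Nlgn1, Nlgn2, Nlgn3, Lrrtm1, Lrrtm2, Lrrtm3 and Lrrtm4. Members were chosen by name, as every probe whose RefSeq identifier maps to one of these 9 symbols. This gave 10 probes of 7 genes, among 41174 non-control probes and 18327 named genes on the array. Lrrtm1 and Lrrtm4 had no probe matched in this way and were not analysed here. All 10 probes were well above background on all 9 arrays, so none was lost to the filter on dim probes.

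Neurexins sit mainly on the axon terminal, and their outer domains bind neuroligins and LRRTMs on the dendrite across the synaptic cleft. Neuroligin 1 is known from excitatory synapses, neuroligin 2 from inhibitory synapses, and neuroligin 3 from both. LRRTMs are postsynaptic proteins of excitatory synapses, which bind neurexins and help to hold AMPA-type glutamate receptors in place.

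The cells were primary cortical neurons from C57BL/6 mouse embryos at embryonic day 15, grown in vitro for 12 days. One group was left without treatment (control), another received 25 µM bicuculline (Bic), a blocker of GABA-A receptors that removes fast inhibition, and the third received 50 mM potassium chloride (KCl), which depolarises the membrane. Both exposures lasted 6 hours, and each group was measured on 3 arrays with 1 colour. No genetic change is given for any group. The labels do not say that the 3 replicates of a group were grown as separate cultures. A p-value here therefore measures array-to-array spread alone, and that spread may be technical.

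The 75th percentile of the signal lay between 1586 and 3087 on the 9 arrays, and 65.0% to 75.9% of non-control spots were well above background. All 10 neuronal markers were well above background on every array, and their summed scaled signal was 112 to 116 in control, 114 to 115 in Bic and 119 to 126 in KCl. The 6 astrocyte markers, also all above background, summed to 59.7 to 66.8, 59.6 to 63.8 and 73.1 to 77.5 in the same order. The defining markers Mog (oligodendrocytes), Pecam1 and Cdh5 (both endothelial) were not well above background on any array, and Itgam (microglia) on only 2. The summed vascular markers, which include Acta2 and Pdgfrb, were 12.6 to 12.8 in control and 15.5 to 15.95 in KCl. The 6 oligodendrocyte markers summed to 11.2 to 11.3 in control, 10.1 to 10.95 in Bic and 12.1 to 12.4 in KCl. The 6 markers of cycling cells and progenitors summed to 18.4 to 19.1, 16.8 to 17.5 and 21 to 22.2 in the same order, and the microglial markers to 1.52 to 1.64, 1.25 to 1.83 and 1.77 to 2.69. All 6 marker sums were thus higher on the KCl arrays than on the control arrays. Those of oligodendrocytes and of cycling cells were lower on the Bic arrays. A sum is set mainly by its brightest probes, such as Acta2 (11 to 14) and Nes (8.84 to 14.6). In KCl, 2 cycling markers passed as higher and 3 as lower (35.3% and 35.5% of all genes). Their median log2 change was -0.175, so that list did not follow its sum. The sums also rest on the scaling of the arrays, and other scalings of them were not tried. The part of these cell types in the Bic and KCl results below was not tested. In RNA from a whole culture, fewer cells of a type and less RNA per cell cannot be told apart. The arrays lay on 3 slides, where slide 1 held control and Bic replicates 1 and 2, slide 2 held KCl replicates 1 and 2 with control and Bic replicate 3, and slide 3 held KCl replicate 3 alone.

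Levels are given as scaled signal, the probe's signal as a multiple of the 75th percentile of its own array. Probes bind with different strength, so a level is compared only between arrays for the same probe. Changes are log2 fold changes with limma's standard error (SE) and an adjusted p (limma, Benjamini-Hochberg over all 27781 probes tested), called at an adjusted p under 0.05. Bic and KCl were compared with the same 3 control arrays, so the 2 sets of changes are not independent.

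**Figure D1:**
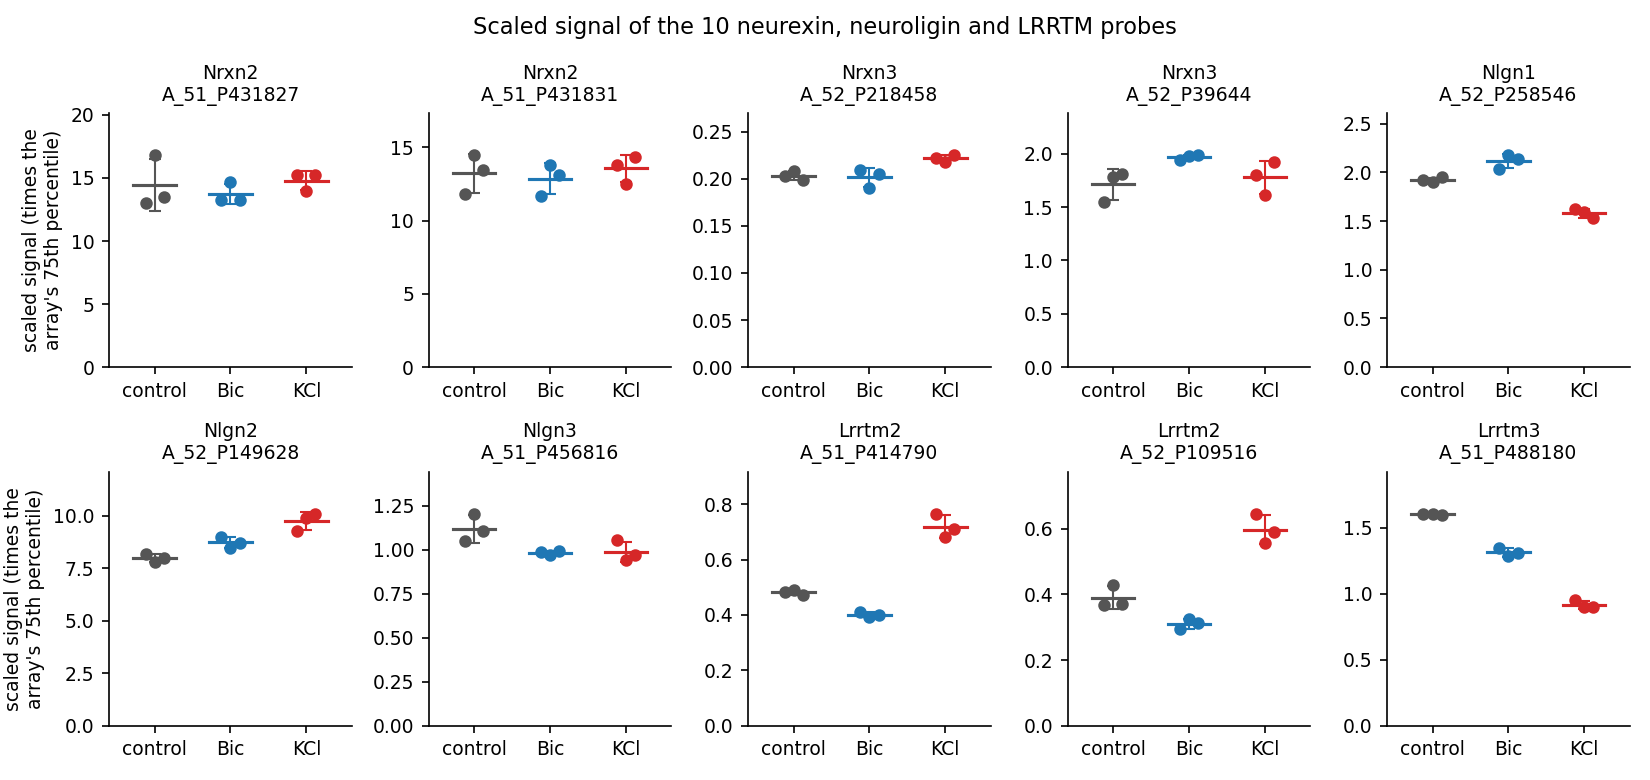
Scaled signal (vertical axis, multiples of the array's 75th percentile, starting at 0) of the 10 probes in control, Bic and KCl arrays. Points are arrays, horizontal bars the mean of 3 arrays and whiskers the SD. The Lrrtm3 groups are separate and descend from control to KCl, whereas both Lrrtm2 probes are lowest in Bic and highest in KCl.

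Postsynaptic LRRTM genes held the widest changes, and the neurexin probes the fewest calls. Under Bic, Lrrtm2, Lrrtm3 and Nlgn3 were lower and Nlgn1 higher than in control. Under KCl, Lrrtm2 and Nlgn2 were higher, Lrrtm3, Nlgn1 and Nlgn3 lower. In Bic, 1 probe passed as higher and 4 as lower, or 5 of 10, where 39.9% of all probes passed in either direction, 17.4% as higher and 22.5% as lower. With replicate number as a block, 3 passed in a fit of all 9 arrays and 4 in a fit of the 6 control and Bic arrays. In KCl, 4 passed as higher and 3 as lower, or 7 of 10, where 69.3% of all probes passed, 36.3% as higher and 32.9% as lower. Between KCl and Bic, 4 were higher and 2 lower in KCl, where 60.6% of all probes passed, 34.6% as higher and 26% as lower. The members' counts were near these background shares and are no result about the members as a set. Of all calls, 43.6% were higher in Bic, 52.5% in KCl and 57.1% in KCl against Bic, and other scalings moved these shares to between 37.9% and 66% in Bic, 30.8% and 54.2% in KCl and 23.7% and 56.5% in KCl against Bic.

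The size of the member changes was not above the background either. Without regard to sign, the members' median log2 change was 0.16 in Bic, 0.23 in KCl and 0.16 between KCl and Bic, against 0.16, 0.35 and 0.27 over all probes. With sign, the medians were -0.05, 0.05 and 0.09, against -0.02, 0.05 and 0.08 over all probes. The 3 arrays of each group did not overlap for 7 members in Bic against control, where this held for 54.1% of all probes. The same held for 6 in KCl against control, beside 73% of all probes, and for 7 in KCl against Bic, beside 67.3%.

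**Figure D2:**
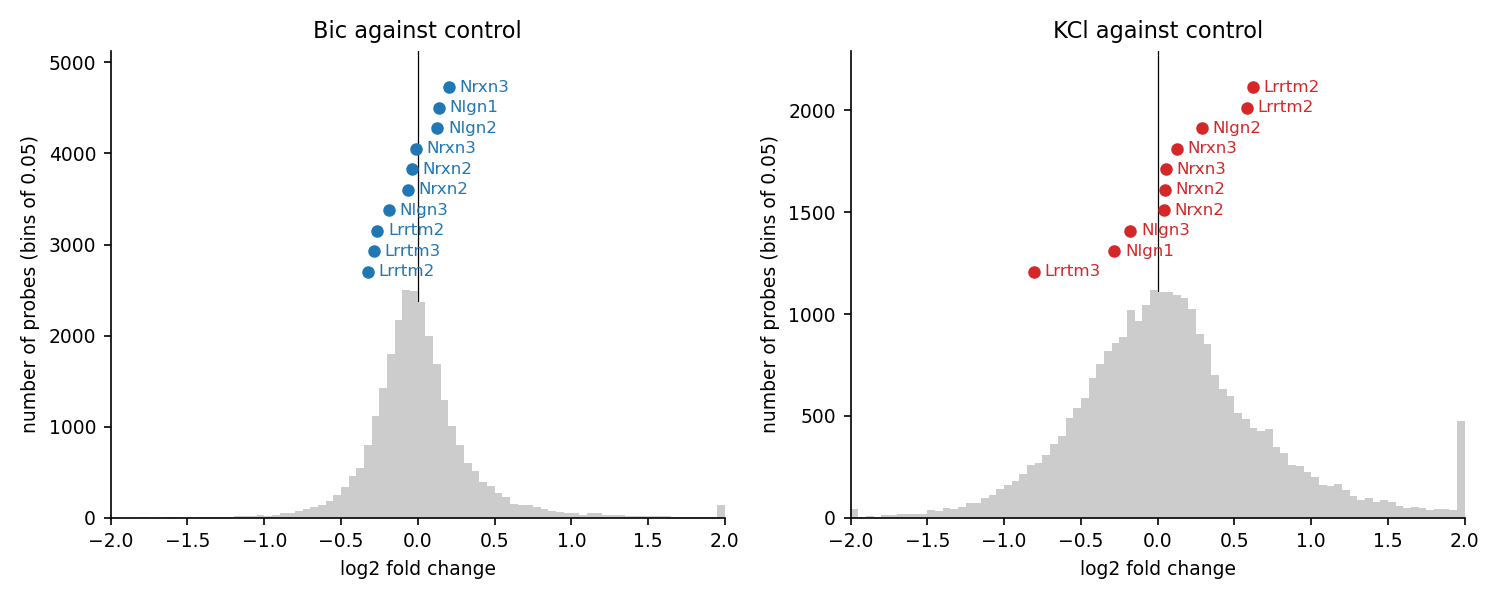
Number of probes (vertical axis) per bin of log2 fold change (horizontal axis, bins of 0.05, values beyond 2 in either direction gathered in the end bins) for Bic and KCl against control, in grey for all 27781 probes. Coloured points mark the 10 member probes in order of their change, and their height has no scale. In KCl the members run from Lrrtm3 at -0.81 to Lrrtm2 at 0.62, inside the body of the distribution.

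Among the presynaptic members, Nrxn2 passed in no comparison on either of its probes. Probe A_51_P431827 read 13.0, 16.8 and 13.5 in control, 13.3, 14.7 and 13.3 in Bic and 15.2, 13.96 and 15.2 in KCl. Probe A_51_P431831 read 11.8, 14.5 and 13.4 in control, 11.7, 13.8 and 13.1 in Bic and 13.8, 12.5 and 14.4 in KCl. The groups overlapped on both probes, and control replicate 2 was the highest control array on each. The log2 changes were -0.06 ± 0.10 and -0.04 ± 0.09 (SE) in Bic (adjusted p = 0.66 and 0.79, limma) and 0.05 ± 0.10 and 0.04 ± 0.09 in KCl (adjusted p = 0.70 and 0.73, limma). For the first probe, the 95% confidence interval ran from -0.29 to 0.17 in Bic and from -0.18 to 0.27 in KCl. A change within these ranges is therefore not excluded.

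The 2 probes of Nrxn3, the other neurexin measured, did not give the same picture. Probe A_52_P39644 read 1.55, 1.78 and 1.81 in control, 1.94, 1.98 and 1.98 in Bic and 1.80, 1.61 and 1.92 in KCl. All Bic arrays were above all control and KCl arrays on this probe, while KCl and control overlapped. Its log2 change was 0.20 ± 0.08 in Bic, which missed the threshold (adjusted p = 0.077, limma; 0.043 with a trended and robust prior and 0.048 without KCl replicate 2), and 0.05 ± 0.08 in KCl (adjusted p = 0.57, limma).

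Probe A_52_P218458 read 0.203, 0.208 and 0.199 in control, 0.209, 0.190 and 0.205 in Bic and 0.222, 0.218 and 0.225 in KCl. Here the KCl arrays stood above both other groups, which overlapped. It was higher in KCl by log2 0.13 ± 0.04 against control (adjusted p = 0.033, limma) and by 0.14 ± 0.04 against Bic (adjusted p = 0.025, limma). The change against control became -0.04 with arrays scaled by their median and -0.09 with spike-in scaling. It was 0.03 with quantile normalization and 0.53 with normexp, and none of these 4 passed (adjusted p = 0.18 to 0.68, limma). The call was lost as well with a trended and robust prior (0.053), replicate number as a block (0.054) and no filter on dim probes (0.069). It also failed the threshold without control replicate 1 or 3 or KCl replicate 1 or 3 (adjusted p = 0.074 to 0.099, limma). The call against Bic was lost without Bic replicate 2 or KCl replicate 1 or 3 (adjusted p = 0.059 to 0.067, limma) and under all 4 other scalings or background corrections, with -0.08 under spike-in scaling. Set against each other on the same array, where a scaling factor per array cancels, the dimmer probe of Nrxn3 gained log2 0.29 ± 0.08 on the brighter one from Bic to KCl (adjusted p = 0.031, limma over 6929 probe pairs, of which 29.1% passed). This call was lost without Bic replicate 2 or 3 or KCl replicate 1 or 2 (adjusted p = 0.062 to 0.11, limma). Such a difference shows unequal change at 2 probes and not which transcript changed.

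**Figure D3:**
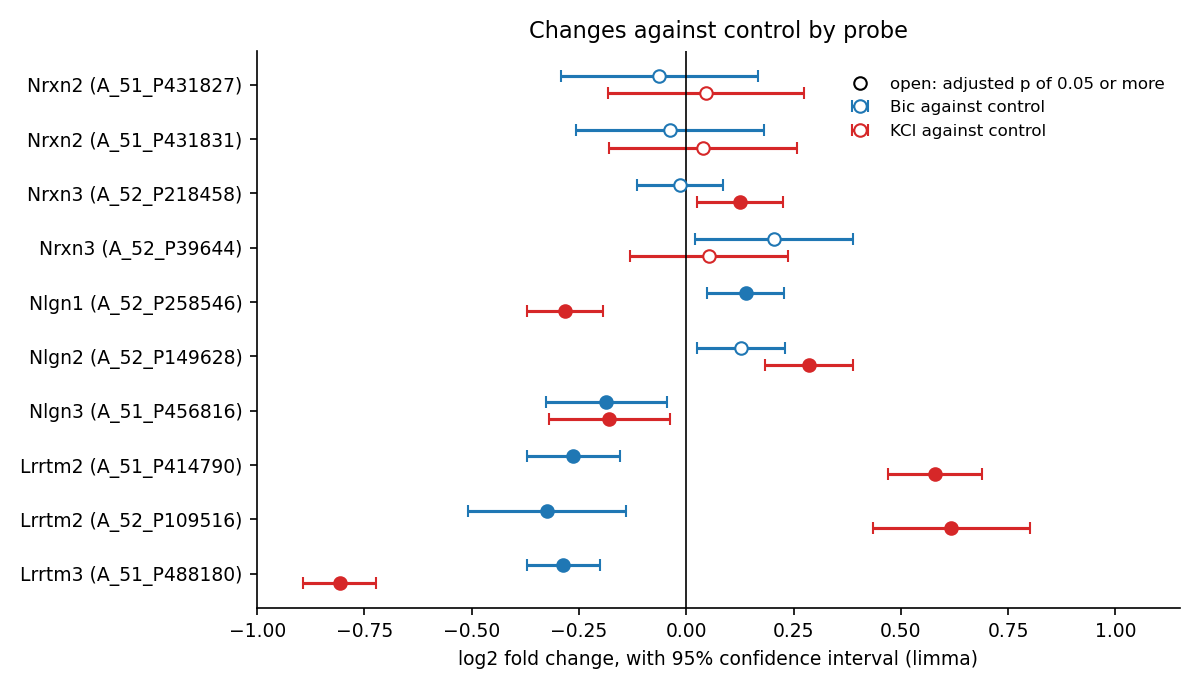
Log2 fold change against control (horizontal axis) of each member probe in Bic (blue) and KCl (red), with limma's 95% confidence interval. Filled points passed an adjusted p under 0.05 and open points did not. Nlgn1 and both Lrrtm2 probes lie on opposite sides of 0 in Bic and KCl.

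The neuroligins, the postsynaptic partners of neurexins, split by gene under KCl, with Nlgn2 higher and Nlgn1 and Nlgn3 lower than in control. Nlgn1, known from excitatory synapses, read 1.92, 1.90 and 1.95 in control, 2.04, 2.18 and 2.14 in Bic and 1.62, 1.59 and 1.53 in KCl. The 3 groups were fully separate, in the order KCl, control, Bic. Nlgn1 was higher in Bic by log2 0.14 ± 0.04 (1.1-fold, adjusted p = 0.023, limma) and lower in KCl by a log2 change of -0.28 ± 0.04 (1.22-fold lower, adjusted p = 3e-04, limma). Set directly against Bic, KCl gave -0.42 ± 0.04 (adjusted p = 5.3e-05, limma), the test of the difference between the treatments. Both KCl results passed under every alternative run, while the Bic result was lost without control replicate 1 or 2 or Bic replicate 2 or 3 (adjusted p = 0.064 to 0.077, limma) and with median scaling, spike-in scaling or normexp. With replicate number as a block in a fit of the control and Bic arrays alone, its adjusted p was 0.056 (limma).

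Nlgn2, the neuroligin of inhibitory synapses, read 8.17, 7.80 and 7.97 in control, 8.995, 8.48 and 8.69 in Bic and 9.25, 9.89 and 10.1 in KCl. The groups were separate and ascended from control through Bic to KCl. The rise in KCl was log2 0.29 ± 0.04 (1.22-fold, adjusted p = 6e-04, limma). In Bic the change was 0.13 ± 0.04 and just missed the threshold (adjusted p = 0.052, limma). It passed in 6 of 21 alternatives, among them without KCl replicate 1 (adjusted p = 0.033, limma). With replicate number as a block it passed in the fit of the control and Bic arrays alone (0.043), and not over all 9 arrays. KCl exceeded Bic by 0.16 ± 0.04 (adjusted p = 0.015, limma; 0.053 without Bic replicate 2). These Nlgn2 values depend on how the arrays are scaled: against control, KCl gave 0.13 with median scaling, 0.08 with spike-in scaling and 0.16 with normexp, none of which passed. Against Bic, KCl gave 0.02 with quantile normalization, 0.04 with median scaling, -0.06 with spike-in scaling and -0.01 with normexp. None of these passed (adjusted p = 0.69 to 0.97, limma).

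Nlgn3, found at both kinds of synapse, read 1.05, 1.204 and 1.104 in control, 0.985, 0.971 and 0.990 in Bic and 1.05, 0.943 and 0.968 in KCl. The Bic arrays were all below control, whereas KCl replicate 1 overlapped the control arrays. The log2 change was -0.19 ± 0.06 in Bic (adjusted p = 0.041, limma) and -0.18 ± 0.06 in KCl (adjusted p = 0.029, limma). KCl against Bic gave 0.01 ± 0.06 with a 95% confidence interval of -0.13 to 0.15 (adjusted p = 0.92, limma). Control replicate 2 was the highest array, and without it the changes were -0.13 in Bic (adjusted p = 0.11, limma) and -0.13 in KCl (adjusted p = 0.085, limma). The Bic call was also lost without control replicate 3, any one Bic array or KCl replicate 3 (adjusted p = 0.058 to 0.11), and the KCl call without control replicate 3, KCl replicate 2 or KCl replicate 3 (adjusted p = 0.055 to 0.093). The Bic call was lost under all 4 other scalings or background corrections too (adjusted p = 0.051 to 0.43) and with replicate number as a block (0.065), and the KCl call with normexp (0.11).

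The DNA just before listed transcription starts of these genes differs in its density of CG dinucleotides, the sites of most DNA methylation and a feature of many housekeeping promoters. The sequences are shown for Nlgn1, Nlgn2 and Lrrtm3, whose probes went in different directions under KCl, as the 250 bases before a RefSeq transcription start (GRCm38.p6, minus strand, 5′ to 3′), with each CG in capitals. They lie at chr3:26331910-26332159 for Nlgn1, which has a further listed start, chr11:69837785-69838034 for Nlgn2 and chr10:64090256-64090505 for Lrrtm3. The Nlgn1 window lies inside the listed span of that gene, chr3:25421808-26332866.
Nlgn1: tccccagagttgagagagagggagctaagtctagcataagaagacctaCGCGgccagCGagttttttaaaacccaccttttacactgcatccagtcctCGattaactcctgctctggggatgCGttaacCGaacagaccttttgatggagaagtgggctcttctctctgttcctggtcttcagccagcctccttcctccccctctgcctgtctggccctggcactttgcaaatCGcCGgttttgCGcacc
Nlgn2: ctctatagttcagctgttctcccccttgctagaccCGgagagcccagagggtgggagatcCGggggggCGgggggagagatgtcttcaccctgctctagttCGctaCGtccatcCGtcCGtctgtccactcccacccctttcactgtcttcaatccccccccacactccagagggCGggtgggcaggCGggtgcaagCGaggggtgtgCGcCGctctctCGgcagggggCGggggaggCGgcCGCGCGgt
Lrrtm3: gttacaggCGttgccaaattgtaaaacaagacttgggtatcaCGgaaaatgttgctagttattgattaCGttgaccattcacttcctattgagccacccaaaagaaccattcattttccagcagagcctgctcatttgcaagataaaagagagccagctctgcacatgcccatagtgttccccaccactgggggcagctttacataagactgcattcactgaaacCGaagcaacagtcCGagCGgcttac
The Nlgn2 window held 18 CG dinucleotides and 67.6% G or C bases, the Nlgn1 window 9 and 53.6%, and the Lrrtm3 window 6 and 46%. The window of the further Nlgn1 start, not shown, held 5 and 43.6%, so the place of Nlgn1 in this order depends on the start. The median over 32851 RefSeq windows of this length was 6 CG dinucleotides and 52.4% G or C.

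Motifs known from activity-dependent transcription were searched on both strands in the 7 such windows of Nrxn3, Nlgn1, Nlgn2 and Lrrtm3. No window of Nrxn2, Nlgn3 or Lrrtm2 was among them, so the counts do not cover these genes. The cyclic AMP response element TGACGTCA, its shorter form TGACG, which the full element contains, and the E-box CACGTG matched in 0 of the 7. They occur in 1.55%, 17.8% and 6.02% of all windows. The AP-1 motif TGANTCA matched in 1 window, of Nrxn3, and occurs in 6.75% of all. These counts say only whether the letters are in the 250 bases searched.

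The LRRTM genes gave the widest member changes, in opposite directions under KCl. Lrrtm3, a postsynaptic neurexin partner, read 1.61, 1.60 and 1.60 in control, 1.35, 1.28 and 1.31 in Bic and 0.953, 0.897 and 0.898 in KCl. The control arrays lay within a narrow range, all Bic arrays were below them, and all KCl arrays were lower still. The signal fell by 18.0% in Bic (log2 -0.29 ± 0.04, adjusted p = 0.00058, limma) and fell by 42.9% in KCl (log2 -0.81 ± 0.04, adjusted p = 6.7e-07, limma). KCl was also below Bic (log2 -0.52 ± 0.04, adjusted p = 1.4e-05, limma). Among all probes, the KCl change of Lrrtm3 stood at percentile 5.9 from the bottom.

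Lrrtm2, the LRRTM most studied as a neurexin ligand, was lower in Bic and higher in KCl on both of its probes. Probe A_51_P414790 read 0.482, 0.489 and 0.473 in control, 0.410, 0.391 and 0.402 in Bic and 0.765, 0.682 and 0.711 in KCl. Probe A_52_P109516 read 0.368, 0.430 and 0.371 in control, 0.294, 0.324 and 0.314 in Bic and 0.645, 0.557 and 0.590 in KCl. On both probes the groups were fully separate, in the order Bic, control, KCl.

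The Lrrtm2 log2 changes were -0.26 ± 0.05 and -0.32 ± 0.08 in Bic (adjusted p = 0.0031 and 0.013, limma). In KCl they were 0.58 ± 0.05 and 0.62 ± 0.08, or 1.49-fold and 1.53-fold (adjusted p = 1.5e-05 and 0.00021, limma). Both LRRTM genes kept their sign in Bic under every scaling and background correction run, but Lrrtm3 and Lrrtm2 A_51_P414790 did not pass with spike-in scaling (adjusted p = 0.09 and 0.12, limma), and with normexp neither these nor the other Lrrtm2 probe did (adjusted p = 0.19 to 0.47, limma). KCl exceeded Bic by 0.84 ± 0.05 and 0.94 ± 0.08 (adjusted p = 5e-06 and 3.4e-05, limma). The 2 probes differed from each other by -0.06 ± 0.07 in Bic and 0.04 ± 0.07 in KCl on the same arrays, which did not pass (adjusted p = 0.70 for both, limma; 12.4% and 38% of all probe pairs passed).

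Control and Bic shared slides 1 and 2, and KCl shared slide 2 with both. Within slide 1, Bic differed from control by -0.29 for Lrrtm3 and by -0.28 and -0.37 for the Lrrtm2 probes (log2, 2 arrays against 2). Within slide 2, these Bic differences were -0.29, -0.24 and -0.24 (1 array against 1). Also within slide 2, KCl differed from control by -0.79 for Lrrtm3, by 0.61 and 0.69 for Lrrtm2, by -0.28 for Nlgn1, by 0.26 for Nlgn2 and by -0.15 for Nlgn3 (2 arrays against 1). Bic differed from control by 0.14 for Nlgn1, 0.13 for Nlgn2 and -0.20 for Nlgn3 on slide 1, and by 0.13, 0.13 and -0.16 on slide 2. With slide as a block, the calls of Nlgn1, Lrrtm2 and Lrrtm3 held in all 3 comparisons. Those of Nlgn3 were lost in Bic and KCl (adjusted p = 0.079 and 0.17, limma), that of Nlgn2 in KCl against Bic (0.11) and those of Nrxn3 A_52_P218458 in KCl against control and against Bic (0.17 and 0.15).

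Lrrtm1, Lrrtm2 and Lrrtm3 overlap genes of α-catenins, proteins that tie cadherins to the actin skeleton, and the array also held probes of these hosts. The overlap with Lrrtm2 is Ctnna1, whose probe rose in KCl by log2 0.64 ± 0.06 (adjusted p = 2.7e-05, limma) and gave 0.04 ± 0.06 in Bic (adjusted p = 0.68, limma). In Bic, Lrrtm2 was thus lower while its host did not pass, and in KCl both were higher. The Ctnna3 probe, whose gene holds Lrrtm3, was too dim to be tested. Ctnna2, the host of Lrrtm1, passed in none of the 3 comparisons. These host genes were looked up after the member values were seen, and whether any probe reads both genes was not tested.

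Changes of one family member relative to another on the same array do not depend on the scaling between arrays. These pairs were chosen after the data were seen, with 15 exact two-sided permutation tests over arrays, where 3 arrays against 3 cannot give a p below 0.10. Lrrtm2 (brighter probe) gained 1.39 (log2) on Lrrtm3 from control to KCl and 1.36 from Bic to KCl, with SDs between arrays of 0.02 in control, 0.01 in Bic and 0.04 in KCl (exact p = 0.1 each, n = 3 per group, 0.15 after Benjamini-Hochberg adjustment). From control to Bic the difference was 0.02 (exact p = 0.3, n = 3 per group, adjusted 0.346). The 2 LRRTM genes therefore moved by like amounts in Bic and far apart in KCl.

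Nlgn2 gained 0.57 (log2) on Nlgn1 from control to KCl, with SDs of 0.03 in control and 0.10 in KCl and no overlap of arrays (exact p = 0.1, n = 3 per group, adjusted 0.15). From control to Bic the Nlgn2 to Nlgn1 difference was -0.01 (exact p = 0.8, n = 3 per group, adjusted 0.857). Nlgn3 lost ground to both others in Bic, by -0.32 against Nlgn1 and -0.31 against Nlgn2 (exact p = 0.1 each, n = 3 per group, adjusted 0.15). In KCl it changed by -0.47 against Nlgn2 (exact p = 0.1, n = 3 per group, adjusted 0.15) and by 0.10 against Nlgn1 (exact p = 0.3, n = 3 per group, adjusted 0.346). The shift of Nlgn2 against Nlgn1 in KCl was larger than the spread between arrays, whereas the change of Nlgn2 against control varies with the scaling. Nrxn3 (brighter probe) gained 0.27 on Nrxn2 in Bic and 0.01 in KCl.

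**Figure D4:**
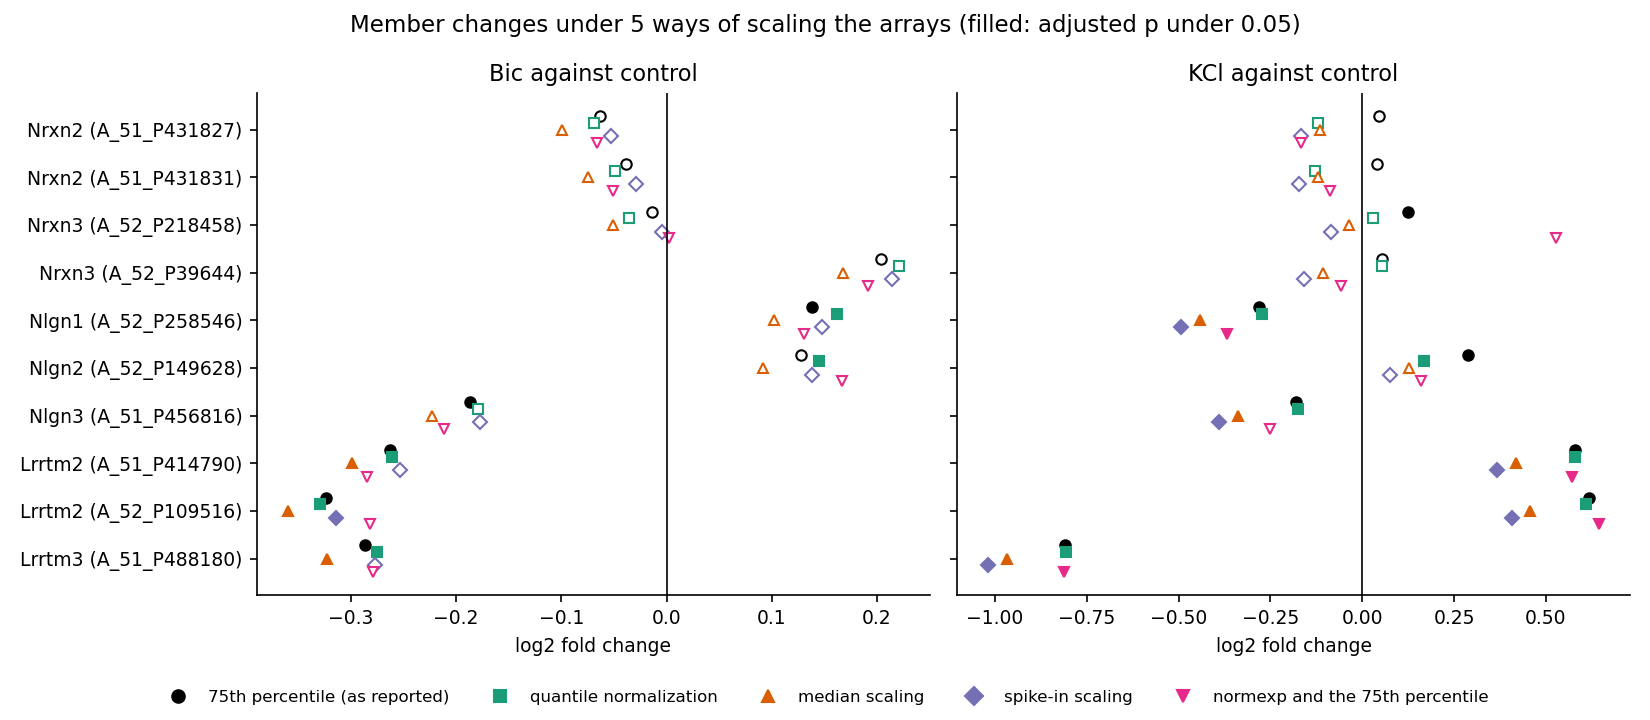
Log2 fold change against control (horizontal axis) of each member probe under 5 ways of scaling or background correction, for Bic and KCl. Filled symbols passed an adjusted p under 0.05 in limma and open symbols did not. In KCl, Nlgn1 and Lrrtm3 stay below 0 and both Lrrtm2 probes above 0 with filled symbols under all 5, while Nlgn2 runs from 0.08 to 0.29 and Nrxn3 A_52_P218458 crosses 0.

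Partner genes of neurexins, neuroligins and LRRTMs were counted from 10 lists by role, with 103 genes, of which 96 could be tested on their brightest probe. In Bic, 27 were higher, 19 lower and 50 did not pass, with a median log2 change of 0.00, where 42.3% of the 14063 genes tested passed and the median over all was -0.03. In KCl, 45 were higher, 23 lower and 28 did not pass, with a median of 0.12, where 70.8% of genes passed and the median was 0.02. By direction, 16.7% of all genes passed as higher and 25.7% as lower in Bic, and 35.3% and 35.5% in KCl. The counts of each list below stand beside these shares and were not tested against them. Between KCl and Bic, 43 were higher in KCl, 23 lower and 30 did not pass, with a median of 0.11, where 63.1% of genes passed, 34.9% as higher and 28.2% as lower. The split in KCl against control depends on scaling, with 31 higher and 32 lower under quantile normalization, 26 and 30 under median scaling and 19 and 30 under spike-in scaling. With normexp, 7 were higher and 2 lower in Bic and 15 higher and 13 lower in KCl. Of the Bic calls that the selection rule names below, those of C1ql3, Cbln2, Lin7a and Khdrbs2 held with normexp and the others did not, and Clstn3, Mdga2, Srrm4 and Psen2 were also lost with spike-in scaling. In KCl, normexp ended the calls of Clstn2, Clstn3, Slitrk6, Ntng2, Il1rapl1, Adam17, Ptprs and Ptprf.

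Of 10 tested secreted ligands that bind neurexins, 3 were higher and 4 lower in Bic, and 4 were higher and 4 lower in KCl. C1ql3, a complement C1q-like synaptic organiser, rose by log2 1.11 ± 0.05 in Bic (2.16-fold, adjusted p = 2.7e-06, limma) and 1.58 ± 0.05 in KCl (2.98-fold, adjusted p = 1.2e-07, limma). Cbln2, a cerebellin that bridges neurexins to postsynaptic receptors, rose by 0.81 ± 0.05 in Bic and 1.00 ± 0.05 in KCl (adjusted p = 1.2e-05 and 9.7e-07, limma), and its other 2 probes were higher too. The related Cbln1 was lower, with -0.43 ± 0.04 and -0.30 ± 0.04 (adjusted p = 9.3e-05 and 0.00024, limma). The neurexophilins, small glycoproteins bound to neurexins, were lower in KCl by -0.55 for Nxph1, -0.95 for Nxph2 and -0.73 for Nxph3 (adjusted p = 0.00023, 8e-06 and 2e-06, limma). Nxph4 gave 0.57 ± 0.32 and did not pass (adjusted p = 0.14, limma). The Nxph2 call was lost under 1 of the 4 other scalings or background corrections. Cbln1 and the neurexophilins were picked after their values were seen.

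Of 18 other leucine-rich repeat proteins of synapses, 9 were higher and 1 lower in Bic, with a median log2 change of 0.22, where 16.7% of all genes passed as higher and 25.7% as lower. In KCl, 10 were higher and 2 lower, with a median of 0.25, where 35.3% and 35.5% of all genes passed. With normexp, 3 were higher and 1 lower in Bic, and with spike-in scaling 5 were higher and 2 lower in KCl. Lrrc4c, the netrin-G1 ligand, rose by 0.69 ± 0.05 and Slitrk2, a partner of presynaptic receptor phosphatases, by 0.68 ± 0.06 in Bic (adjusted p = 3.2e-05 and 6.2e-05, limma). In KCl, Slitrk6 rose by 1.21 ± 0.13 and Lrrc4, the netrin-G2 ligand, by 0.86 ± 0.05 (adjusted p = 7e-05 and 2.8e-06, limma). In Bic these rises stand beside falls of Lrrtm2 and Lrrtm3, which belong to the same protein superfamily but not to this list.

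Among 9 tested presynaptic partners inside the cell, 3 were higher and 3 lower in Bic, and 5 were higher and 3 lower in KCl. Lin7a, of the complex that CASK forms under neurexins, rose by 0.85 ± 0.04 in Bic and 1.81 ± 0.04 in KCl (adjusted p = 3.4e-06 and 2.3e-08, limma). The other 3 Lin7a probes ranged from 0.03 to 0.71 in Bic and 0.17 to 1.60 in KCl, so the size depends on the probe. Apba1 (Mint1), of the same complex, rose by 0.71 ± 0.08 and 1.13 ± 0.08 (adjusted p = 0.00028 and 6.9e-06, limma).

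Of 10 postsynaptic partners inside the cell, 2 were higher and 2 lower in Bic, and 3 were higher and 3 lower in KCl. Magi1, a scaffold protein, rose by 0.45 ± 0.04 in Bic and 1.00 ± 0.04 in KCl (adjusted p = 0.00013 and 5.4e-07, limma). Lhfpl4, which links neuroligin 2 to GABA-A receptors, was lower in Bic with -0.42 ± 0.06 (adjusted p = 0.00088, limma). It was lower in KCl too, with -0.40 (adjusted p = 0.00044, limma). The other Lhfpl4 probe gave -0.49 in Bic and -0.18 in KCl and passed in neither (adjusted p = 0.068 and 0.4, limma). Gphn (gephyrin), a scaffold of inhibitory synapses picked after its values were seen, gave -0.08 ± 0.05 in KCl and 0.11 ± 0.05 in Bic and passed in neither (adjusted p = 0.16 and 0.11, limma), while its other probe gave 0.41 in KCl (adjusted p = 0.044, limma).

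Of 8 splicing regulators known to act on neurexin or neuroligin transcripts, 1 was higher and 4 lower in Bic, and 4 were higher and 3 lower in KCl. Among all genes, 16.7% passed as higher and 25.7% as lower in Bic, and 35.3% and 35.5% in KCl. Khdrbs2 (SLM1), which acts on an alternative exon of neurexins, rose by 0.50 ± 0.05 in Bic and 1.03 ± 0.05 in KCl (adjusted p = 0.00015 and 9.3e-07, limma). Srrm4 was lower in Bic with -0.27 ± 0.05 (adjusted p = 0.0025, limma), although in KCl this probe gave 0.14 and another -0.65, each past the threshold. Ptbp2 was lower in KCl with -0.34 ± 0.04 (adjusted p = 0.00013, limma). Splice forms of the members were not measured by these probes as analysed here.

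Of 13 glypicans and heparan sulfate enzymes, 3 were higher and 1 lower in Bic, with Gpc2 at 0.42 ± 0.10 (0.18 with normexp) and Ext1 at 0.34 ± 0.05, and 7 were higher and 3 lower in KCl, with Hs3st1 at 0.65 ± 0.05 and Ext1 at 0.65 ± 0.05. Of 5 calsyntenins, dystroglycan and MDGA proteins, 3 were higher in Bic and 3 in KCl, with 0 lower. Clstn3, a neurexin partner, rose by 0.33 ± 0.06 in Bic and 0.61 ± 0.06 in KCl. Mdga2, which binds neuroligins and keeps neurexins off them, was higher in Bic with 0.24 ± 0.07 (adjusted p = 0.030, limma), a call lost without control replicate 1 or 3 or Bic replicate 1 or 2. Clstn2 was higher in KCl with 0.26 ± 0.04, but did not pass under any other scaling.

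Of 16 other synaptic adhesion proteins, 3 were higher and 3 lower in Bic, and 7 were higher and 3 lower in KCl. These counts depend on the probe. In KCl, Tenm3 gave -0.20 on the counted probe but 0.52 and 1.28 on others, and Ntng1 gave -0.27 but 1.07. Cadm3 gave 0.48 on the counted probe and -0.15 on its other, and all these values passed the threshold. Il1rapl1 rose by 0.69 ± 0.08 in Bic and 1.05 ± 0.08 in KCl (adjusted p = 4e-04 and 1.3e-05, limma). Ntng2 was not well above background on any control array and was at least 1.89-fold higher in KCl. This bound was set by the lowest signal marked well above background on each control array and was not itself tested. The test used the measured control values, which lie in the background (log2 1.46, adjusted p = 0.00018, limma). Ntng2 entered that test only through its KCl arrays, and the call was lost with normexp (adjusted p = 0.15, limma). Of 3 receptor phosphatases, 0 passed in Bic and 2 were higher in KCl, Ptprs with 0.22 ± 0.06 and Ptprf with 0.16 ± 0.06, both of which turned negative under quantile normalization (-0.08 and -0.06); the second Ptprs probe did not pass. Of 4 proteases, 1 was lower in Bic and 2 in KCl, with Psen2, a presenilin, at -0.19 ± 0.03 and -0.47 ± 0.03 and Adam17 at -0.22 ± 0.05 in KCl, a value that became -0.07 with normexp (adjusted p = 0.79, limma).

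The genes most like the member probes with the widest rise and the widest fall were sought among 14018 other named genes. Pearson's correlation over the 9 arrays, which fall into 3 groups, served as the measure and is a description only. For Lrrtm2 (A_52_P109516) these were Plekha2, Nexn and Zbtb18, at 0.996, 0.994 and 0.993. All 3 share its order of groups, with log2 changes of -0.20, -0.48 and -0.15 in Bic and 0.50, 1.18 and 0.37 in KCl. For Lrrtm3 these were Amer3, Rgs17 and Rps6kb1, each at 0.998, with -0.29, -0.32 and -0.30 in Bic and -0.83, -1.0 and -0.88 in KCl. A correlation above 0.95 was found for 282 genes with Lrrtm2 and for 1354 with Lrrtm3. These 2 counts depend on the noise of each probe and are not compared.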

How the data were processed

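RNA of 9 samples (3 control, 3 Bic, 3 KCl, grouped by the labels) was labelled with cyanine 3 and read on 1-colour Agilent arrays. The authors deposited spot intensity (processed signal) from Agilent's Feature Extraction software. Its version is 10.7.3.1 in the file headers and 10.5.1.1 in the submitters' processing notes. Background had been subtracted, with no scaling between arrays, per the file headers. The deposited series values equalled that intensity on all 45018 features (tolerance 1e-06).

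Intensity was set to log2 and each array's 75th percentile over 43379 non-control spots subtracted, which makes changes relative to the bright part of each array. Spots marked as outliers were dropped (0 values of the members), and spots of a probe were averaged. RefSeq identifiers named 26888 of the 41174 probes (table of assembly GRCm38.p6), each probe being read separately. Kept probes were well above background on all arrays of at least 1 group and measured on at least 2 arrays of each, 27781 in all.

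Changes were tested with limma 3.58.1 (R 4.3.3) in 1 fit of all 9 arrays with group as the only term (6 residual degrees of freedom, prior 1.71), two-sided, with Benjamini-Hochberg adjustment per comparison. The number of arrays limits the precision, and the median SD between replicates was 0.075 (log2). The procedure was tested on simulated data. Probes of the same gene were compared by the same test on their difference within each array.

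The members, the 10 partner lists, the 6 marker lists and the alternatives were chosen with earlier results of these data known. From each list, the text names the 2 genes with the largest change past the threshold against control, by comparison. A gene that this rule selects is not reported here. Deviations from the group means correlated between same-numbered control and Bic arrays (0.345, 0.209 and 0.669), which share slides, so a replicate block was also fitted to these 6 arrays. Alternatives covered scaling, background, filter, prior, slide, replicate number, the arrays in the fit and leaving out each array.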

Additional observations from a re-analysis of the deposited data

How the results depend on the processing

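For KCl against control, and for KCl against Bic, the calls and directions of Nlgn1, both Lrrtm2 probes and Lrrtm3 held under each alternative run (20 each, 19 for Lrrtm2 A_52_P109516). In Bic against control, 5 member probes passed in limma, but 3 with median scaling, 1 with spike-in scaling, 0 with normexp (where 3.7% of all probes passed) and 3 with no filter on dim probes. Leaving out 1 array gave 3 to 6. In KCl against control, 7 passed, 4 with normexp, and 5 to 7 without 1 array. In KCl against Bic, 6 passed, and 4 to 6 without 1 array. The Nrxn3 probe difference between KCl and Bic (1 call) was 0 with normexp, with no filter on dim probes and with slide as a block, and 0 to 1 without 1 array. In both comparisons with control, 0 probe differences passed under any alternative run, with 1 at an unadjusted p under 0.05 in Bic and 0 in KCl.

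Values that turned sign were Nrxn3 A_52_P218458 in KCl against control (-0.035 with median scaling, -0.086 with spike-in scaling) and against Bic (-0.082 with spike-in scaling). So did Nlgn2 in KCl against Bic (-0.062 with spike-in scaling, -0.009 with normexp). In KCl against control, Ptprs gave -0.082 with quantile normalization, and Ptprf gave -0.062 with quantile normalization, -0.004 with median scaling and -0.056 with spike-in scaling. The cause was not tested. The median log2 change of all probes in KCl against control was 0.05 as reported, -0.11 with median scaling, -0.16 with spike-in scaling and 0.29 with normexp.

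With replicate number as a block over all 9 arrays, 3 member probes passed in Bic against control, 5 in KCl against control and 6 in KCl against Bic, and 0, 0 and 1 probe differences. With the block on the 6 control and Bic arrays alone, a fit chosen after the data were seen, 4 passed in Bic, where Nlgn1 and Nlgn3 were lost and Nlgn2 gained. Pairing by number was seen between control and Bic and not with KCl, whose arrays correlated with same-numbered others between -0.484 and -0.061.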
